A study of Mus musculus with 8 samples.

Results

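The chromatin loops at Dusp6 were read from 6 mouse liver libraries in which HA-tagged REV-ERBα had been pulled down. A loop belonged to the locus when at least 1 of its anchors overlapped a 150-kb window of chromosome 10 (99200001 to 99350000, mm10), and 162 of the 277517 listed loops did. Knock-in liver gave 116 of them at ZT10 and 9 at ZT22. Another 7 and 8 came from the libraries of the shortened construct, against 6 and 16 from those of the full-length construct. The locus was selected on its counts of loops and PETs in the ZT10 knock-in library. Its lead in that library is therefore given as a description and is not tested.

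The assay was in-situ ChIA-PET, in which crosslinked chromatin is cut and religated inside nuclei and then immunoprecipitated, so that a paired-end tag (PET) joins 2 places that lay near each other at a site bound by the protein. The knock-in mice (REV-ERBa3HA/3HA) carried the tag on their own REV-ERBα, received no virus and gave 1 liver library at ZT10 and 1 at ZT22, where ZT is zeitgeber time in hours. The other 4 libraries, all at ZT10, came from REV-ERBaf/fREV-ERBbf/f mice, whose floxed receptor genes are removed where AAV8-TBG-Cre is active. These mice also received a tagged construct by AAV8-TBG, with 2 libraries for the form without the hIDR (labelled delhIDR, written dhIDR here) and 2 for the full-length form (WT). TBG is a promoter of hepatocytes, so in these mice Cre and both constructs were driven in that cell type while other liver cells kept their own genes. Whole liver was used throughout, so fewer cells with a contact and fewer contacts per cell cannot be told apart. No library without the tag was used here.

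REV-ERBα is a nuclear receptor of the circadian clock that binds DNA and represses transcription by recruiting corepressors. DUSP6 is a dual-specificity phosphatase that removes the activating phosphates from the kinase ERK. Its gene is switched on by ERK signalling, so the enzyme acts as negative feedback on that pathway, and in liver it has been linked to the control of gluconeogenesis.

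Dusp6 (gene ID 67603) lies on the forward strand of chromosome 10 at 99263231 to 99267489. The end of the long noncoding RNA gene Gm34921 (102638331, 99266864 to 99270899, reverse strand) overlaps the end of Dusp6. At lower coordinates lie the noncoding genes Gm34777 (102638142, 99233075 to 99239013, forward) and Gm34574 (102637874, 99216677 to 99232089, reverse). Poc1b (382406, 99107082 to 99198074), which encodes a centriole protein, ends just below the window. The RefSeq promoters (GRCm38.p6, whose coordinates are those of mm10) of the 3 genes at the most heavily joined anchors are shown because the loops described next meet there. Each runs 5′ to 3′ on its gene's strand, from 250 bases before the gene start to 50 after it. Capitals mark matches to AGGTCA and to the REV-ERB motif, and a sequence with none has no match. The windows are chr10:99262981-99263280 (forward) for Dusp6, chr10:99270850-99271149 (reverse) for Gm34921 and chr10:99232825-99233124 (forward) for Gm34777.
Dusp6 promoter: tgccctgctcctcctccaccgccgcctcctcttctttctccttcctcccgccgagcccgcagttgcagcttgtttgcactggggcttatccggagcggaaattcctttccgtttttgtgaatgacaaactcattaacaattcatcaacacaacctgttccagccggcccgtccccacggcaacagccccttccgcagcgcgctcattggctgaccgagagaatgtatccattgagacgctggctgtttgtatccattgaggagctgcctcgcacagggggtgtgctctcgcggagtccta
Gm34921 promoter: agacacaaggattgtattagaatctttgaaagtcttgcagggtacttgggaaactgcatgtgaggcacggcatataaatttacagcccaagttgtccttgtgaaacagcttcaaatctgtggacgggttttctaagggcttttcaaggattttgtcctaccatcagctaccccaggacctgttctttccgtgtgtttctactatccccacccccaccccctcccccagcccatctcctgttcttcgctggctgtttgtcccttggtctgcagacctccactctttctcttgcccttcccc
Gm34777 promoter: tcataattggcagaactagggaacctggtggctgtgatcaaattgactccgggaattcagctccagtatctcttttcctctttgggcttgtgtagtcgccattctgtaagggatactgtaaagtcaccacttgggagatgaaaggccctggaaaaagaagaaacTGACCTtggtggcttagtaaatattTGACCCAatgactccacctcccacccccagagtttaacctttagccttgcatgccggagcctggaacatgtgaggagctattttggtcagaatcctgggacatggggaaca

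The Dusp6 promoter held no REV-ERB motif (TAGGTCA or TGGGTCA), no AGGTCA hexamer, no RevDR2 element (AGGTCA, any 3 bases, then GGTCA), no E-box (CACGTG) and no D-box (TTATGTAA) on either strand. The Gm34921 promoter held none of them either. The Gm34777 promoter held 1 AGGTCA at base 165 and 1 REV-ERB motif (TGGGTCA) at base 190, both on the opposite strand and not overlapping, and none of the other 3 elements. Among 32851 RefSeq promoters of the same length, 6.45% held the REV-ERB motif, 16.3% AGGTCA, 0.0213% RevDR2, 7.15% an E-box and 0.938% a D-box, so the matches at Gm34777 are of a common kind. AluI, the enzyme used to cut the chromatin, has 2 sites (AGCT) in each of the 3 promoters, and 77.6% of all promoters hold at least 1. A match is a description of the letters and not a measured site.

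The ZT10 knock-in library stood apart from the other 5 as a whole. It listed 320427 PETs in 57865 loops, of which 88.5% spanned at most 500 kb, with a mean of 5.54 PETs per loop. The other libraries listed between 104161 and 204018 PETs in 31033 to 58102 loops, of which 41.7% to 49.6% spanned at most 500 kb, with 3.27 to 3.83 PETs per loop. Each file lists only loops with at least 3 PETs, so an unlisted loop has 0 to 2 PETs, and depth before that cutoff is unknown. PETs are given with exact Poisson intervals (95%), which cover counting error only, since PCR copies and PETs of 1 loop are not independent.

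In the knock-in libraries the window held 996 listed PETs at ZT10 (interval 935 to 1060) and 27 at ZT22 (17.8 to 39.3). It held 26 (17.0 to 38.1) and 33 (22.7 to 46.3) PETs in dhIDR replicates 1 and 2, against 18 (10.7 to 28.4) and 59 (44.9 to 76.1) in WT replicates 1 and 2. The ZT10 knock-in library was thus high alone, and the other 5 lay between 18 and 59 PETs. Per 100,000 listed PETs of the same library, the window had 311 at ZT10 and 20.3 at ZT22, with 14.6 and 20.5 for dhIDR and 17.3 and 28.9 for WT. The strongest single loop had 151 PETs at ZT10 and 3 at ZT22, 6 and 6 for dhIDR, and 3 and 6 for WT. All 9 loops at ZT22 and all 6 of WT replicate 1 had exactly 3 PETs.

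**Figure D1:**
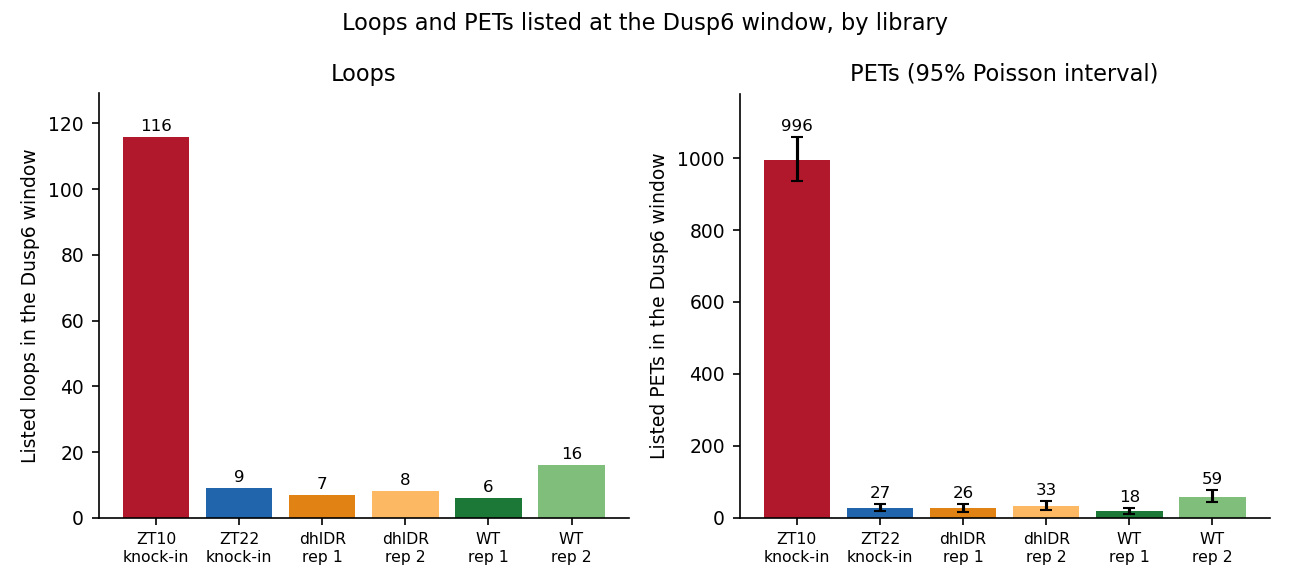
Listed loops (left) and listed PETs (right) with an anchor in the Dusp6 window, 1 bar per library, with exact 95% Poisson intervals on the PETs. The ZT10 knock-in bar reaches 116 loops and 996 PETs, and the other 5 libraries reach 6 to 16 loops and 18 to 59 PETs.

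The loops of the ZT10 library were also of another shape. Their median span was 51.8 kb (quartiles 29.5 and 125 kb, range 8.27 to 826 kb), 114 of the 116 spanned at most 500 kb, and none exceeded 2 Mb. In the ZT22 library 5 of 9 loops spanned over 2 Mb. In dhIDR replicates 1 and 2, 1 of 7 and 4 of 8 did, and in WT replicates 1 and 2, 2 of 6 and 7 of 16. Anchors were wider too, with a median of 1248 bp at ZT10 and 617 bp at ZT22, and the widest ZT10 anchor measured 13309 bp against 1207 bp at ZT22. For the whole ZT10 library the median anchor was 1067 bp, and in the other 5 libraries 601 to 626 bp. The short spans and wide anchors at Dusp6 therefore moved with features of the entire ZT10 library, and their part in the count of window PETs was not tested.

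**Figure D2:**
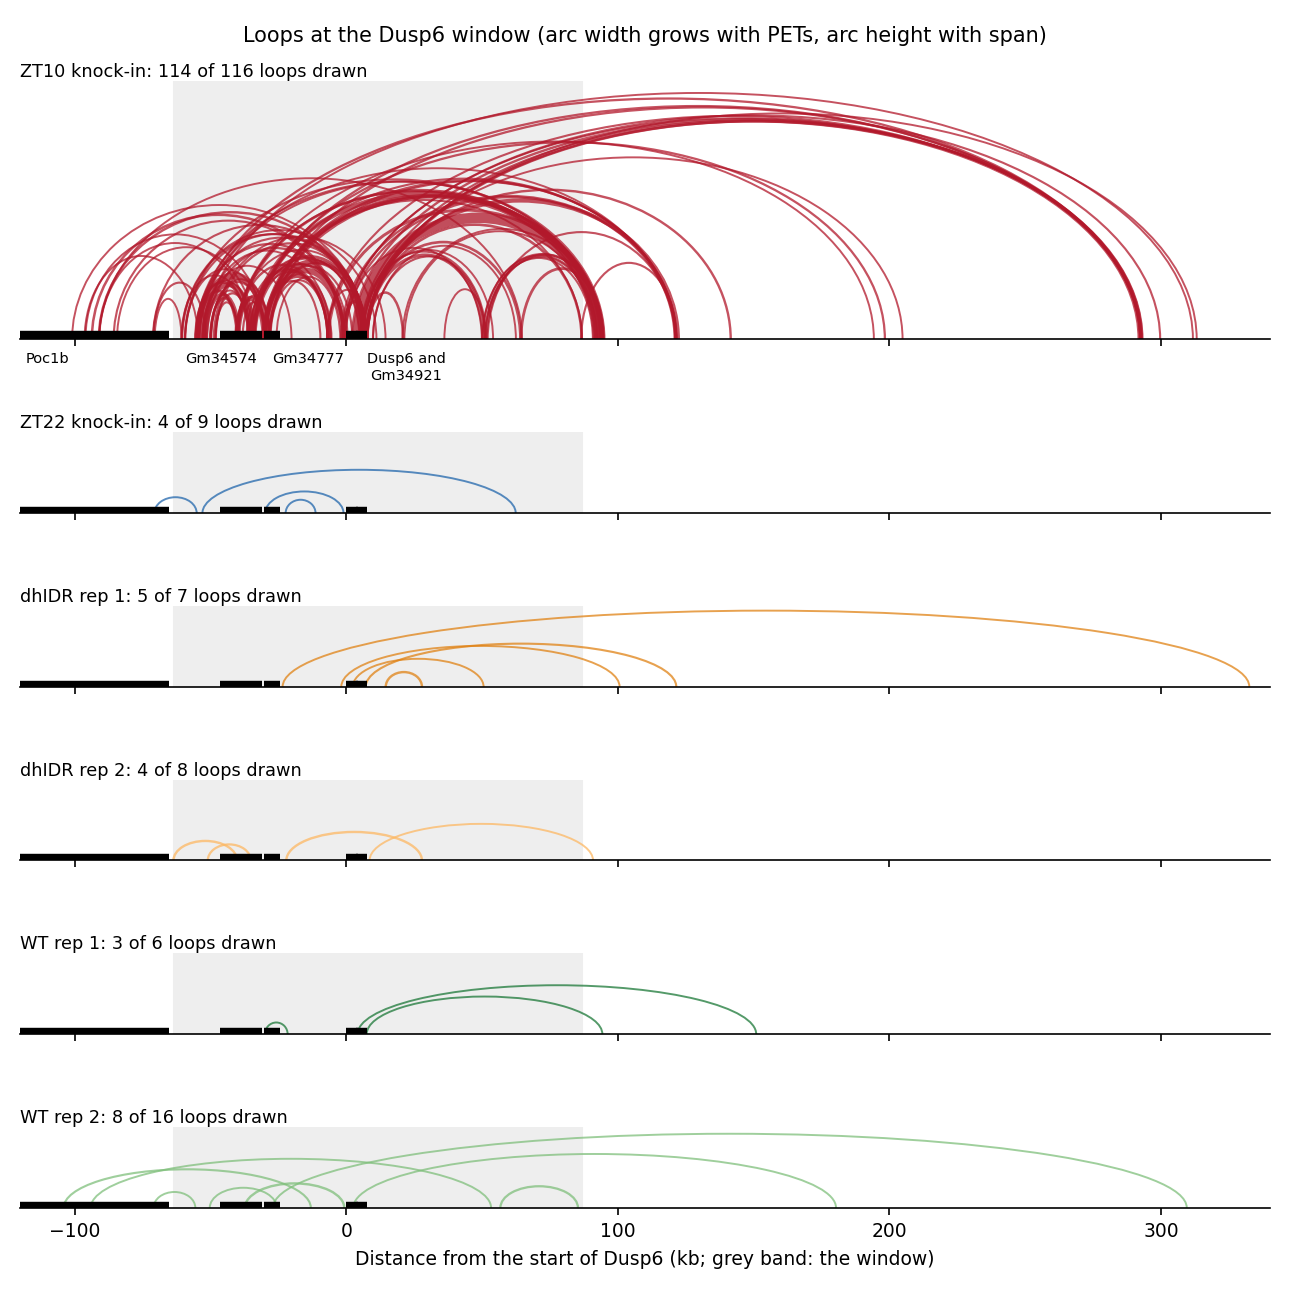
Each arc is 1 listed loop at the Dusp6 window, drawn between its anchor midpoints against the distance from the Dusp6 start in kb, 1 row per library; arc width grows with PETs, black bars are genes and the grey band is the window. In the ZT10 knock-in row 114 of 116 loops fit in the drawn range, while the other rows show 3 to 8 loops each.

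The strongest ZT10 loop joined the Dusp6 gene to intergenic sequence beyond it. Its first anchor, at 99260865 to 99274173, covered Dusp6 and Gm34921 whole, and its second lay at 99353216 to 99359222, where no gene is annotated. It had 151 PETs over a span of 88.7 kb and ranked 22 of 57865 loops in the library. Among the 2707 ZT10 loops that spanned 80 to 100 kb, whose median was 3 PETs, it ranked 1. The second anchor lies just outside the window, and the nearest anchor just inside that edge, at 99349260 to 99350588, had 3 loops and 15 PETs.

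The next loops by PETs lay on the lower side of Dusp6, among the noncoding genes. A loop of 77 PETs joined 99206543 to 99212541, an intergenic place, to 99231729 to 99236170 at the start of Gm34777. A loop of 50 PETs joined 99231720 to 99235872 at that same start to 99259863 to 99264731, which covers the Dusp6 start, and thus linked both promoters printed above. Loops of 37 and 37 PETs ran within the Gm34574 to Gm34777 stretch and its flank. Then came 2 loops of 32 PETs, 1 from Gm34574 (99226336 to 99230518) to the intergenic place at 99354210 to 99358668, and 1 from Gm34777 (99231720 to 99234248) to Dusp6 and Gm34921 (99266927 to 99271848). Loops of 25, 23 and 19 PETs completed the first 10, of which the 25-PET loop joined 99267781 to 99271483 at Gm34921 to 99384179 to 99386473. Those 10 loops held 483 of the 996 window PETs, or 48.5%. In all, 17 window loops (14.7%) had 10 or more PETs, compared with 9.21% of all ZT10 loops, and 38.8% had the minimum of 3, compared with 54.6%.

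Overlapping anchors of the ZT10 library were merged to follow the network. The 116 loops then ran between 39 anchors, 21 in the window and 18 outside it, and joined 78 pairs of anchors. Positions are given as the distance of an anchor's midpoint from the Dusp6 start in kb, negative toward lower coordinates. The anchor over Dusp6 and Gm34921 (99259863 to 99274717, 14855 bp) had the most loops, with 48 loops, 475 PETs and 28 partner anchors. Among 51940 merged ZT10 anchors it ranked 9 by loops, 7 by partners and 18 by PETs, with the reservation that a wide anchor collects more loops than a narrow one.

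The other well-joined anchors fell into a lower and an upper group around the gene. In the lower group, the anchor at -53.7 kb (99206543 to 99212541, intergenic) had 18 loops and 199 PETs. The anchor at -39.5 kb (99221633 to 99225799, inside Gm34574) had 12 loops and 116 PETs, and that at -34.5 kb (99226129 to 99231312, at a Gm34574 start) had 21 loops and 148 PETs. The anchor at -29.3 kb, over the Gm34777 promoter (99231720 to 99236170), had 22 loops and 324 PETs and ranked 63 by PETs in the library. Closest to Dusp6, the anchor at -6.0 kb (99255449 to 99259037) had 10 loops and 64 PETs. Of these 5 lower anchors 3 thus lay on the noncoding genes.

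In the upper group no anchor overlapped an annotated gene. The anchor at 50.8 kb (99312485 to 99315664) had 11 loops and 50 PETs. The anchor at 93.0 kb (99353216 to 99359222) had 33 loops and 412 PETs, of which 19 loops and 291 PETs belonged to the window, and it ranked 45 by loops. Farther out, the anchor at 121 kb (99382374 to 99387070) had 14 loops and 126 PETs, and the anchor at 293 kb (99554130 to 99558320) had 18 loops and 109 PETs. The network thus reached much farther above the gene than below it.

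These 10 anchors, each with at least 10 loops, were chosen after their values were seen. A large share of the signal at them follows in part from that choice, and no share was computed for anchors picked alike elsewhere. Of the 45 pairs they can form, 34 (75.6%) were joined by a listed loop, 31 of them by loops of the window. Those window loops between different main anchors held 783 PETs, or 78.6% of the window. Dusp6 shared 151 PETs with the anchor at 93.0 kb, 93 with the Gm34777 anchor, 35 with that at 121 kb, 25 with that at -34.5 kb, 25 with that at 293 kb and 23 with that at 50.8 kb. Contacts that bypassed Dusp6 were listed as well. The anchor at -53.7 kb shared 77 PETs with Gm34777 and 48 with the anchor at -34.5 kb, and the Gm34777 anchor shared 39 PETs and the anchor at -34.5 kb 32 PETs with the anchor at 93.0 kb. The anchor at 93.0 kb shared 61 PETs with that at 121 kb and 27 with that at 293 kb. The anchor at 50.8 kb was joined to Dusp6 and to the anchors at 93.0 and 121 kb, and no loop to any of the 5 lower anchors was listed.

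**Figure D3:**
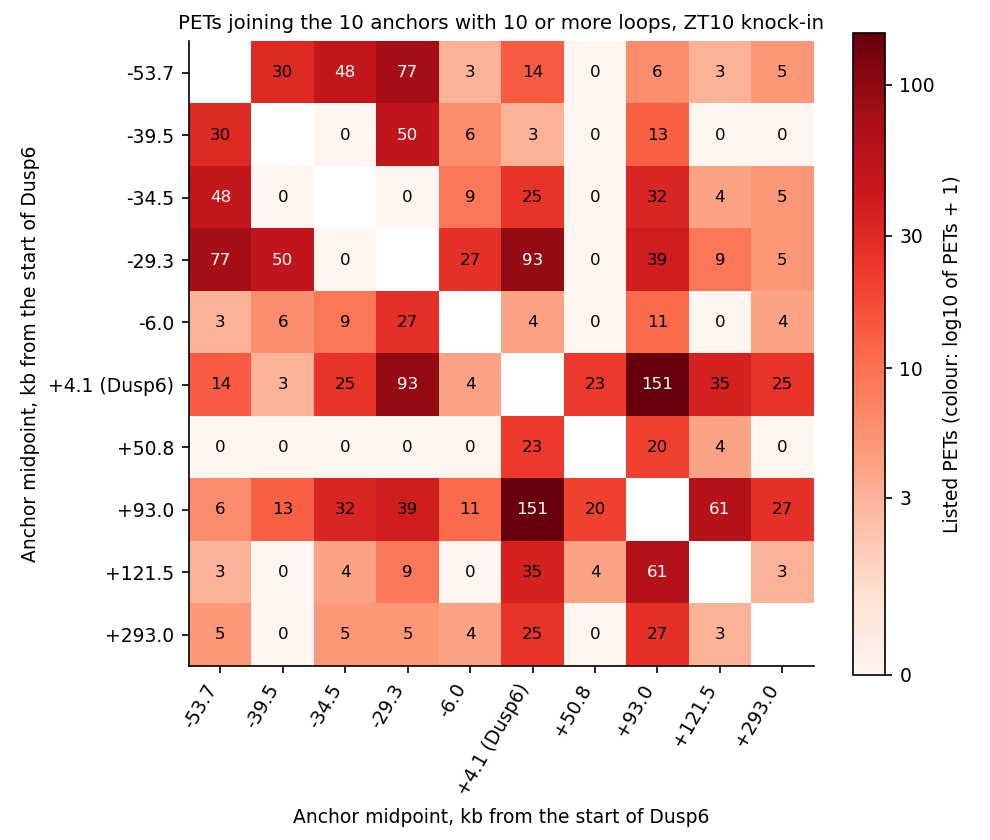
Listed ZT10 PETs between each pair of the 10 merged anchors with at least 10 loops, ordered by midpoint in kb from the Dusp6 start, with colour on a log10 scale of PETs + 1; 0 means that no loop was listed, which allows 0 to 2 PETs per loop. The darkest cells are Dusp6 with the anchor at 93.0 kb (151 PETs) and Dusp6 with the Gm34777 anchor (93 PETs), and the row at 50.8 kb is at 0 for all 5 lower anchors.

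A minority of the pairs of Dusp6 partners were also joined to each other. Of the 378 pairs that the 28 partners can form, 42 (11.1%) were joined by a listed loop. In the ZT10 library 54 anchors had at least 20 partners, and their share of linked pairs had a median of 15% and a range of 2.17% to 43.8%, in which the Dusp6 anchor ranked 35. The share at Dusp6 was thus within the range of other anchors with many partners. The 18 anchors outside the window were joined to each other by 12 loops with 125 PETs over 8 pairs, which the window count leaves out.

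Loops at the Dusp6 anchor left in both directions. Toward lower coordinates there were 24 loops with 181 PETs to 14 partners, toward higher coordinates 23 loops with 282 PETs to 14 partners, and 1 loop of 12 PETs lay within the anchor. The 48 loops held 47.7% of the window PETs, so the larger part, 521 PETs, joined places other than Dusp6. Inside the wide anchor, loop ends within 2 kb of the Dusp6 start numbered 13 with 111 PETs, 79 of them to lower and 32 to higher partners. Loop ends within 2 kb of the Gm34921 start, 7668 bp away, numbered 25 with 189 PETs, 98 to lower and 91 to higher partners. The loop of 12 PETs within the anchor is counted at both of its ends. Its PETs are among the 32 to higher partners at the Dusp6 start and the 98 to lower partners at the Gm34921 start. The end of the 151-PET loop covered both starts, and another 10 ends with 36 PETs lay near neither. More ends therefore fell at the Gm34921 start than at the Dusp6 start, and the anchors do not resolve to which of the overlapping genes a contact belongs.

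Few loops reached other protein-coding genes. Kitl (17311, 100015615 to 100100416), which encodes the ligand of the receptor KIT, was met by 2 loops of 3 PETs each at 791 and 794 kb from the Dusp6 start, 1 from Gm34574 and 1 from Gm34921. The body of Poc1b was met by 12 loops with 46 PETs at 7 anchors. When PETs were assigned to genes by an anchor within 5 kb of either gene end, Dusp6 had 491 PETs at ZT10 and 3 at ZT22, 10 and 3 in dhIDR libraries, and 9 and 9 in WT libraries, and it ranked 20 of 21900 protein-coding genes at ZT10. The 4 other protein-coding genes within 500 kb had between 0 and 20 PETs in each library. Poc1b had 12 PETs at ZT10 and 0 at ZT22, 0 and 15 for dhIDR, and 3 and 0 for WT. Atp2b1, a calcium pump of the plasma membrane, had 3 and 3, 3 and 0, and 0 and 20 in the same order. Both thus exceeded Dusp6 in 1 AAV library, Poc1b in dhIDR replicate 2 and Atp2b1 in WT replicate 2. Galnt4, an enzyme of mucin-type glycosylation, had 3 and 0 in the knock-in libraries, as did Csl, and 0 to 9 PETs were listed for these genes in the AAV libraries. The noncoding neighbours shared the loops of the locus, with 519 PETs at ZT10 and 6 at ZT22 for Gm34574, 469 and 9 for Gm34777, and 472 and 3 for Gm34921.

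The ZT10 excess ended sharply on the lower side. In the 5 tiles of 150 kb below the window, from the farthest to the nearest, the ZT10 library listed 3, 3, 9, 3 and 64 PETs, and the ZT22 library 36, 34, 12, 16 and 6. In the 5 tiles above, from the nearest outward, ZT10 had 514, 128, 3, 0 and 12 PETs, and ZT22 had 16, 33, 10, 20 and 22. Both libraries thus had PETs across the region, and beyond the first 1 or 2 tiles on each side ZT10 was the lower of both knock-in libraries. The AAV libraries stayed between 9 and 59 PETs in all 11 tiles. Tiles were ranked among the 16919 with a listed PET in any of the 6 libraries. The Dusp6 window was 5 in the ZT10 library (median tile 4 PETs). Above it were the tiles with Irs2 (2462 PETs), with the fibrinogen genes Fga, Fgb and Fgg (1437), with Zmiz1 (1225) and with Tbl1xr1 (1088). Close below it were tiles of 991, 984 and 982 PETs. The grid was aligned so that the window filled 1 tile, which can favour its rank over loci that the grid cuts. The window ranked 1005 at ZT22 (median 12), 3835 and 1189 for dhIDR, and 2522 and 60 for WT.

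**Figure D4:**
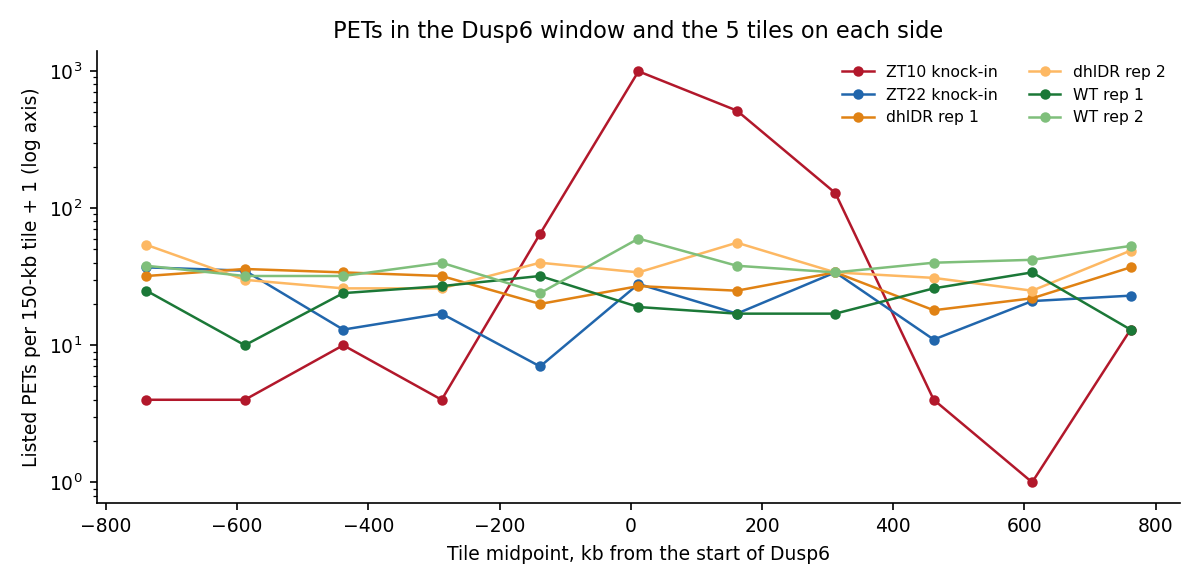
Listed PETs + 1 (log axis) in the Dusp6 window and the 5 tiles of 150 kb on each side, by tile midpoint in kb from the Dusp6 start, 1 line per library. The ZT10 knock-in line peaks at 996 PETs in the window and lies at 12 or fewer in the outer tiles, while the other 5 lines stay between 6 and 59.

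The ratio of ZT10 to ZT22 depends on what it is set against. The window's share of listed PETs was higher at ZT10 by 3.91 on the log2 scale (exact Clopper-Pearson interval 3.38 to 4.54, pseudocount 0.5 PETs, 1 library each and so no replicate check). Among 4884 tiles with at least 30 PETs over both libraries, the median log2 ratio was 0.06, 17.0% were at least 4-fold higher and 20.1% at least 4-fold lower at ZT10, and 91 tiles (1.86%) had a larger ratio than Dusp6. Gene ends behaved otherwise. At the ends of Dusp6 the log2 ratio was 5.86, but the median over the 2085 genes with at least 30 PETs was 3.06, and 256 of them (12.3%) had a larger ratio than Dusp6. Summed over protein-coding genes, 229141 PETs were listed at ZT10 and 49092 at ZT22, so genes reached the minimum of 30 more easily through ZT10. That minimum therefore favours high ratios in this median and in the calls over genes. Relative to that median the Dusp6 ends were higher by 2.80 and the window by 0.85 on the log2 scale.

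ERK pathway genes were read the same way, against a background in which 71.3% of the tested genes were at least 4-fold higher and 0.192% at least 4-fold lower at ZT10. The minimum of 30 PETs favours genes high at ZT10 in the lists as in this background. Of the tested genes 702 had no loop listed at ZT22 and entered as 0 PETs with the pseudocount, although unlisted loops may hold PETs, so for such genes PETs are given and no fold. A list of 16 genes held phosphatases of the Dusp family, not all of them specific to ERK, and the Spry and Spred feedback inhibitors. Of these, 4 had at least 30 PETs, 3 were at least 4-fold higher and 0 lower. The median log2 ratio of the tested members was 3.04 beside 3.06 for all tested genes. Besides Dusp6 the higher members were Spry4, an inhibitor of receptor signalling to ERK, with 116 PETs at ZT10 and 3 at ZT22 (log2 ratio 3.79), and Dusp1, a phosphatase of stress kinases and ERK, with 77 and 6 (2.30). Spred2, a further inhibitor, had 29 and 13 (-0.14). The list is in part Dusp6 itself, and the shares are near the background.

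Receptors and kinases of the cascade were tested in part too. Of 21 members reported 4 were tested, 2 were at least 4-fold higher and 0 lower, and the median log2 ratio was 1.36, under the 3.06 of all tested genes. Met, the receptor of hepatocyte growth factor, had 167 PETs at ZT10 and 6 at ZT22, and Egfr, a receptor of epidermal growth factor, had 50 and 3. Erbb3, a partner receptor of the same family as Egfr, had 23 and 10 PETs (log2 ratio -0.11), and Sos1, an exchange factor downstream of these receptors, had 22 and 8 (0.13).

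Of 13 transcription factors and early genes that respond to ERK, 3 were tested and all 3 were at least 4-fold higher, but 2 of them had no loop listed at ZT22, so their calls rest on the pseudocount and no median is given. Myc had 57 PETs at ZT10 and none listed at ZT22, Junb had 45 and 3, and Elk4 had 36 and none listed. Of 4 gluconeogenic genes, the 3 tested were all at least 4-fold higher, with a median of 3.50 beside 3.06 for all tested genes. Over all tested genes 71.3% were at least 4-fold higher, which is the background for both lists. The call of G6pc rests on the pseudocount. G6pc, which releases glucose from glucose 6-phosphate, had 121 PETs at ZT10 and none listed at ZT22. Foxo1, a transcription factor that activates it, had 102 and 6, and Pck1, the enzyme that makes phosphoenolpyruvate, had 95 and 3. Ppargc1a, a coactivator, was listed at 0 in both. Dusp6 had the most ZT10 PETs of the genes in these 4 lists.

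**Figure D5:**
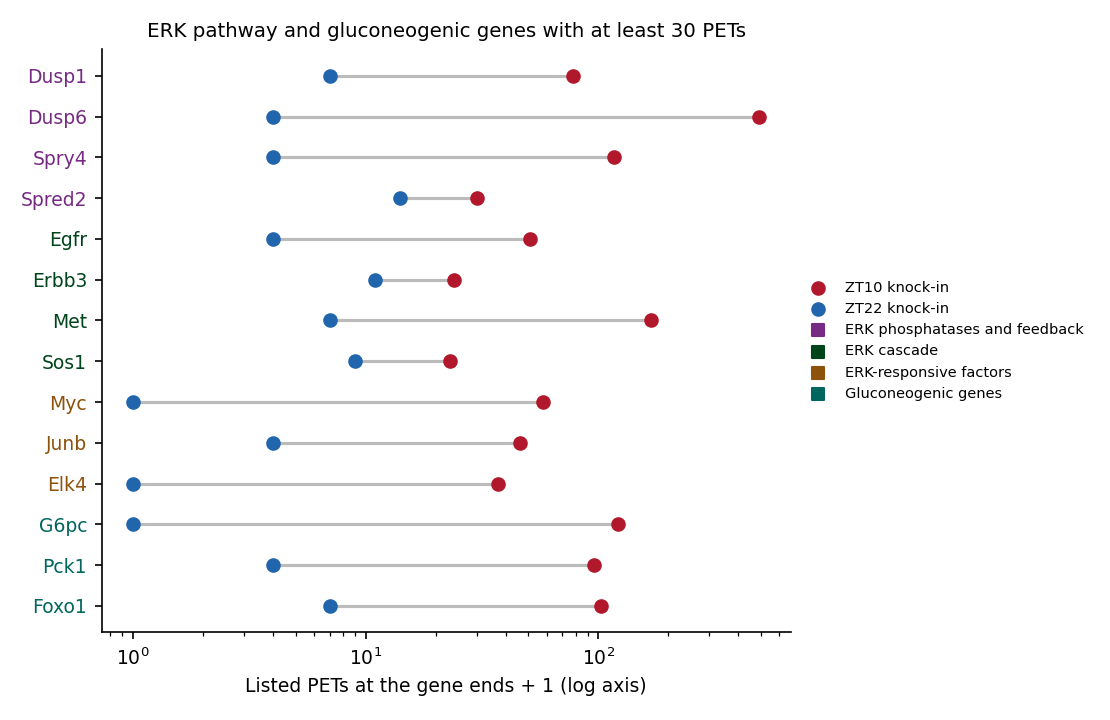
Listed PETs + 1 (log axis) within 5 kb of the gene ends for the 14 ERK pathway and gluconeogenic genes with at least 30 PETs over the 2 knock-in libraries, ZT10 and ZT22 joined by a line and gene names coloured by list. Dusp6 lies farthest right at ZT10 with 491 PETs, against 3 at ZT22, and Spred2, Sos1 and Erbb3 have the shortest lines.

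The gene ends of the liver's cell types give the setting. The ends of 6 hepatocyte genes (Alb, Ttr, Apoa1, Apob, Cyp2e1, Hnf4a) had 636 PETs at ZT10 and 19 at ZT22. Those of 5 Kupffer genes had 3 and 10, with Clec4f, Marco, Vsig4 and Csf1r at 0 at ZT10. The sums were 60 and 9 for 4 endothelial genes, 14 and 25 for 4 stellate genes, 32 and 15 for 4 cholangiocyte genes (all 32 at Sox9) and 15 and 15 for 4 lymphocyte genes. The hepatocyte sum was thus the highest of the 6 in the ZT10 knock-in library. In the AAV libraries, also at ZT10, it was 28 and 9 for dhIDR and 9 and 15 for WT. Kupffer sums there were 37 and 15 for dhIDR and 9 and 41 for WT. The part of hepatocytes in the Dusp6 values was not tested.

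Few loops recurred at the locus outside the ZT10 library. A loop was matched when both its anchors overlapped those of a ZT10 loop by at least 1 bp, and 5 of the 46 loops of the other 5 libraries were. Anchors were used as listed and not merged, so a loop between 2 merged anchors joined at ZT10 can count as unmatched. In the ZT22 library 1 of 9 matched, a 3-PET loop from the Gm34777 start (99233105 to 99233628) to just before the Dusp6 start (99261892 to 99262578), set against 50 PETs at ZT10. In dhIDR replicate 1, 1 of 7 matched, with 4 PETs from Gm34921 (99270051 to 99270778) to 99384445 to 99385048, set against 25 at ZT10. In dhIDR replicate 2, 2 of 8 matched, with 5 PETs at 99211990 to 99212541 and 99227836 to 99228399, and with 3 PETs at 99271552 to 99272097 and 99353778 to 99354428. In WT replicate 1, 1 of 6 matched, with 3 PETs from Gm34921 (99270051 to 99271483) to 99357050 to 99358014. In WT replicate 2, 0 of 16 did. The counts by library depended on this rule. When anchor midpoints were matched by pairs of 10-kb bins instead, 2 loops matched at ZT22, 1 and 1 for dhIDR, and 0 and 3 for WT replicates 1 and 2.

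By overlap of both anchors, the loop of 151 PETs was met once in a dhIDR and once in a WT library, each time with 3 PETs. Over whole libraries, 1.29% of the ZT22 loops, 0.720% and 0.348% of the dhIDR loops, and 0.525% and 0.365% of the WT loops matched a ZT10 loop, so the matches at Dusp6 are a larger share of few loops. ZT10 anchors covered 58070 bp (38.7%) of the window, which makes an overlap there more likely than elsewhere. Single anchors fell on a ZT10 anchor in 10 of 12 cases at ZT22, 6 of 9 and 6 of 10 for dhIDR, and 5 of 7 and 14 of 19 for WT. Some anchors shared a border to the base. The end at 99212541 occurred in 5 anchors of the ZT10 and dhIDR replicate 2 libraries, and the start at 99270051 in 3 anchors, 1 each of the ZT10, dhIDR replicate 1 and WT replicate 1 libraries.

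The strongest loops of the other libraries mostly did not match by overlap. In dhIDR replicate 1 the strongest had 6 PETs between 99277426 to 99278149 and 99290788 to 99291437, both intergenic. In dhIDR replicate 2, loops of 6 PETs ran from 99199324 to 99199935 into Gm34574 (99222760 to 99223375) and from 99240854 to 99241505 to 99290812 to 99291411. In WT replicate 2 a loop of 6 PETs joined Gm34574 (99225639 to 99226209) to just before the Dusp6 start (99262193 to 99262816), and another of 6 PETs ran from 99324528 to 99325437 over 8542 kb into Otogl. Among the 10 pairs of these 5 libraries, only ZT22 and WT replicate 2 shared a loop, of 3 PETs in each, from Poc1b to the intergenic place near -55 kb. Neither the dhIDR pair nor the WT pair of replicates shared a loop at the window.

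No difference between dhIDR and WT libraries passed a test at Dusp6. Over 15190 tiles, replicates of the same group correlated at only 0.13 (dhIDR) and 0.16 (WT). With replicates this unlike, the absence of a call does not show that the groups were alike at the window. The window's share per 100,000 listed PETs was 17.6 ± 4.22 in dhIDR and 23.1 ± 8.23 in WT (SD, n = 2 each). The groups overlapped, the difference was -5.54, and the exact two-sided permutation p was 0.667, where 2 against 2 libraries can give no less than 0.33. In edgeR's quasi-likelihood test over 15190 tiles, the Dusp6 window had a log2 difference (dhIDR minus WT) of -0.43 (SE 0.53) and an adjusted p of 1.0. None of the tiles passed at an adjusted p under 0.05 (0%), 463 had an unadjusted p under 0.05, and DESeq2 called 1 tile. WT replicate 2 decided the direction: without it the difference in share was 0.277 and the log2 difference of the window 0.02. Whether both libraries of a group stem from different animals is not stated in the labels, and the p-values therefore cover only the spread between libraries, which may be technical.

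At the ends of Dusp6 the dhIDR libraries had 10 and 3 PETs, against 9 and 9 in the WT libraries. These were too few to pass edgeR's filter on low counts, which left 372 genes with 0 called (0%), 19 at an unadjusted p under 0.05 and 3 called by DESeq2. With no filter the log2 difference of Dusp6 was -0.63 (SE 1.65, adjusted p 0.995 by edgeR), so a sizeable difference in either direction was not detectable at this depth. The other ERK genes were as thinly covered. The 16 phosphatases and feedback inhibitors summed to 88 and 26 PETs in dhIDR and 38 and 70 in WT, and the 4 gluconeogenic genes to 10 and 10 in dhIDR and 15 and 22 in WT. In the first list the groups overlapped, and the sums of the second rest on few PETs. These are raw PETs of libraries with unlike totals, and neither list was tested.

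The 5 protein-coding genes more than 1 Mb away whose profile over the 6 libraries was nearest to that of Dusp6 were Thra, Sdc4, Tnfrsf1b, Crls1 and Nuak2. Likeness was the Euclidean distance between log2(listed PETs per 100,000 + 1) at the gene ends, among genes with at least 30 PETs in all. Thra, which encodes a thyroid hormone receptor and overlaps the end of the gene of REV-ERBα itself, was nearest at a distance of 1.35, with 263 PETs at ZT10 and 4 at ZT22, 9 and 5 for dhIDR, and 5 and 12 for WT. Sdc4, a heparan sulfate proteoglycan, followed at 1.57 with 387 and 3, 8 and 3, and 4 and 3. Tnfrsf1b, a receptor of tumour necrosis factor (1.60), Crls1, the cardiolipin synthase (1.62), and Nuak2, a kinase related to AMPK (1.69), had 173, 382 and 279 PETs at ZT10 and 3, 3 and 4 at ZT22. All 5 were high in the ZT10 knock-in library alone and low in the AAV libraries, also at ZT10, as Dusp6 was. This follows from choosing them by likeness to its profile.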

How the data were processed

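In-situ ChIA-PET with anti-HA beads was analysed for 6 of the 8 samples (the 2 anti-CTCF samples are not analysed here). Per the labels' protocols, liver nuclei were fixed with formaldehyde and EGS, digested with AluI and ligated again before shearing, immunoprecipitation, Tn5 tagmentation and paired-end sequencing. The authors deposited, for each library, pairs of anchors with raw PET counts (at least 3 per pair), and per the submitters' processing notes the build was mm10. Aligner, duplicate filter and cluster caller are not given in the sources used here. Mitochondrial clusters were left out. Sample titles gave each library its group and replicate.

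The members and all gene lists, markers and motifs were chosen with earlier results of these data known. Starts were turned into 1-based positions. PETs were summed over the window, over tiles of 150 kb aligned with it and over 21900 protein-coding genes (anchor within 5 kb of a gene end, since the RefSeq gene table has no strand). dhIDR and WT counts were compared with edgeR 4.0.16 (TMM, filterByExpr, quasi-likelihood test, Benjamini-Hochberg) in R 4.3.3, with DESeq2 1.42.0 as an alternative. The edgeR procedure was tested on simulated tile counts, and not on simulated gene counts. Named loops were the 10 strongest at ZT10, up to 5 strongest of each other library and the merged anchors with most loops; the anchors with at least 10 loops were chosen after their values were seen. Named genes were Dusp6, genes at its anchors or within 500 kb, up to 4 of each list by ZT10 PETs and the 5 nearest profiles; 1 member of the lists is not reported here. Tables used pandas 2.3.3 and scipy 1.17.1 under Python 3.11.15. The main fits used no pairing by replicate number. Deviations of same-numbered dhIDR and WT libraries correlated at r = 0.02 over 15190 tiles. Replicates of the same group correlated at only 0.13 (dhIDR) and 0.16 (WT) there, so this value cannot tell whether replicate numbers pair libraries.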

Additional observations from a re-analysis of the deposited data

How the results depend on the processing

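Over 57 alternatives, 37 kept their direction, kept their number of calls or stayed within 1.5 times the reported value, 17 moved and 3 reversed. For the test at the Dusp6 ends this rests on the number of genes called, and some of those fits gave no value for Dusp6. The ZT10 network depended on its weak loops: with at least 4 or 5 PETs required it had 71 or 47 loops and 48 or 35 joined pairs, and with 5 required the Dusp6 anchor had 14 partners. Merging anchors within 1 kb left 51 joined pairs, and leaving anchors unmerged gave Dusp6 12 partners. The log2 ratio of ZT10 to ZT22 was 5.86 at the Dusp6 ends and 0.85 on the scale of the median gene. Under 5 other definitions or totals it ran from 3.64 (a window 50 kb wider on each side) to 4.41 (loops of at most 2 Mb), and at 4 or 5 PETs per loop ZT22 listed nothing at the window (861 and 765 PETs at ZT10), so no ratio was formed.

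The dhIDR minus WT difference in share reversed to 2.61 at 4 PETs per loop and to 0.277 without WT replicate 2, with a range of -11.4 to 0.277 when each library was left out in turn. The log2 difference of the window ranged from -0.733 to 0.0249 in that way, reversed only without WT replicate 2, and its adjusted p was 0.999 or more by edgeR or DESeq2 under all 10 alternatives fitted. Calls over tiles numbered 1 with DESeq2, 1 with the replicate block and 1 to 14 with each library left out, where a lone library is assumed to vary like the others. Calls over genes numbered 3 with no filter and 3 with DESeq2. With DESeq2 and no filter, an alternative chosen after seeing the data, 0 genes were called and the log2 difference of Dusp6 was -0.60 (adjusted p 0.996). With the replicate number as a block the window's log2 difference was -0.38 (adjusted p 1.0), and the pairs differed in share by -2.71 and -8.38. Requiring anchors of at least 700 bp left 3 tiles and no value for the window. For the values that moved or reversed the cause was not tested, beyond the fewer loops that a higher minimum leaves. The low number of PETs limits what can be read at the Dusp6 ends, which have at most 10 listed in each library other than the ZT10 knock-in.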
